A study of Homo sapiens with 6 samples.

Results

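The data cover 37 genes of the DNA replication fork in OE-19 cells, an established line of adenocarcinoma of the esophagogastric junction (AEG). The genes encode the replicative polymerases, the sliding clamp and its loaders, and the proteins that unwind, coat, join and clean up DNA at the fork. They were chosen by symbol from their known roles, with earlier results of these data known. All 37 are among the 60480 identifiers of the deposited table. The study compared 3 libraries of OE-19 cells in which an shRNA lowered IGF2BP3 (IGF2BP3 KD) with 3 libraries of cells with a control shRNA (control). IGF2BP3 is an RNA-binding protein that reads the mRNA modification m6A, and the study asked which transcripts depend on it. All libraries come from this single line, the labels do not say which hairpin each library carries, and nothing says whether the 3 libraries of a group came from separate cultures, so the spread between them may be technical.

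At a replication fork the CMG helicase, made of CDC45, the MCM ring and the GINS complex, unwinds DNA. DNA polymerase alpha-primase lays short RNA-DNA primers, polymerase epsilon extends the leading strand, and polymerase delta extends the Okazaki fragments of the lagging strand. Replication factor C (RFC) loads the ring-shaped clamp PCNA, which holds the polymerases on their template, and RPA coats exposed single strands. Flap removal, RNA removal and ligation then join the Okazaki fragments. Many of these genes are transcribed at the G1-S boundary under E2F factors, and their mRNA levels are known to follow the share of cells that enter S phase.

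Of the 37 genes, 29 were lower in IGF2BP3 KD cells and 0 were higher, while 10.6% of all 19778 genes tested were lower and 9.87% were higher. Here "lower" and "higher" mean an adjusted p under 0.05 in edgeR's quasi-likelihood fit over the whole table. The median log2 fold change of the 37 genes, IGF2BP3 KD over control, was -0.35, against 0.0098 over all genes tested. The genes are well expressed, with control means from 9.17 CPM (counts scaled to a common library size with TMM factors) for *POLE2* to 253 CPM for *PCNA*. Among the 10551 coding genes whose mean reached 5 CPM, 18.4% were lower and the median was -0.0086. The 3 IGF2BP3 KD values lay below the 3 control values in 32 of the 37 genes, against 17.8% of all genes tested, and above them in 2, *POLD2* and *RPA3*, so that the groups did not overlap in 34 genes, against 35.8% of all genes tested. All 37 passed the filter on low counts. Of the 34 genes with an unadjusted p under 0.05, 1 had a log2 fold change above 0. The share of all genes tested under this unadjusted limit was not counted, so the 34 have no background. The falls were moderate. A further limit of 0.5 on the size of the log2 fold change left 8 genes called lower, *POLA1*, *TIPIN*, *RFC4*, *FEN1*, *CDC45*, *GINS1*, *DNA2* and *WDHD1*, against 2.1% of all genes tested. DESeq2 called 30 of the 37 lower, against 16.6% of the genes it tested, and edgeR with the replicate number as a block called 27, against 10.2%.

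**Figure D1:**
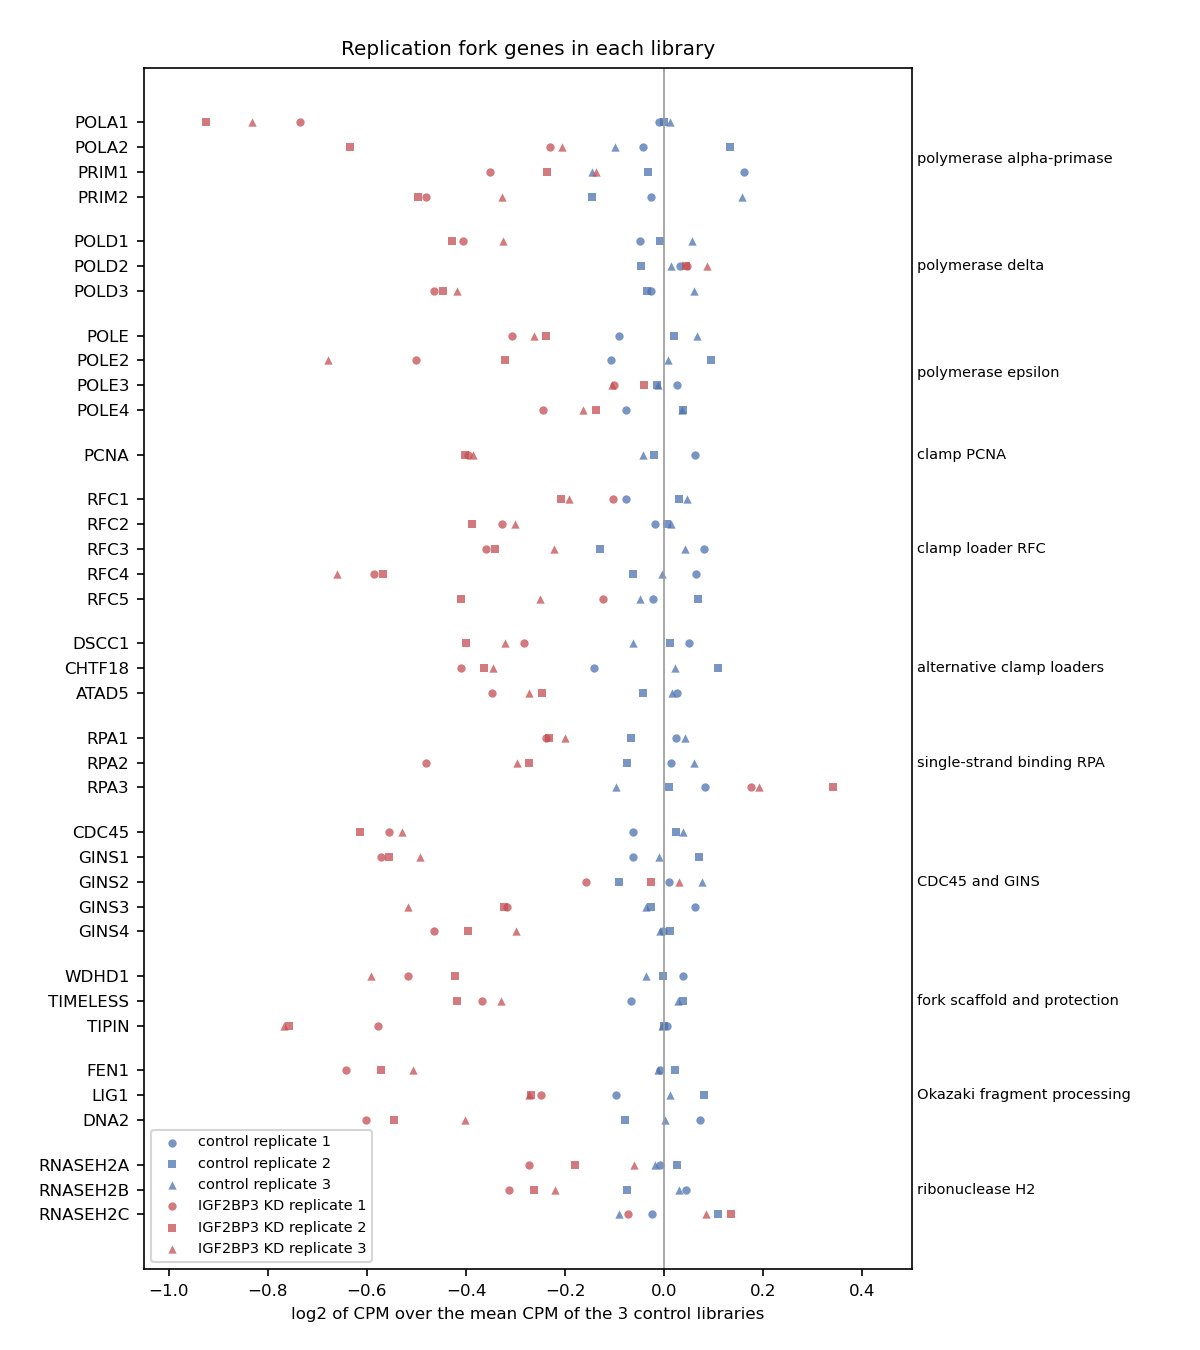
Each point is the CPM of a gene in a library, on the x axis as the log2 of its ratio to the mean of the 3 control libraries, with genes on the y axis grouped by role. The IGF2BP3 KD points lie left of all control points in 32 of 37 genes, with *POLA1* and *TIPIN* farthest left and *RPA3* to the right.

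Total counts lay between 53424071 and 69989087 per library, and mitochondrial genes took 8.67% to 9.06% of them. *IGF2BP3* itself went from 108 ± 2.92 CPM to 13.3 ± 0.996 CPM (SD, n = 3), a log2 fold change of -3.03. The summed level of 10 epithelial markers lay between 18939 and 19944 CPM in control and between 20633 and 21111 CPM in IGF2BP3 KD cells. Most of it was *ERBB2*, at 12478.5 to 13396 CPM in control and 14123.5 to 14652.6 CPM in IGF2BP3 KD cells. The lowest of the 10, *CLDN3*, had 13.5 to 17.2 CPM in control and 16.4 to 21.1 CPM in IGF2BP3 KD cells. Among the 10 markers *KRT8* (-0.057) and *KRT18* (-0.073) were lower and *EPCAM* (0.15) and *ERBB2* (0.13) higher, as log2 fold changes. The calls of *KRT8* and *KRT18* were lost with the replicate block (adjusted p = 0.0896 and 0.0642 with edgeR) and held in 1 and 2 of the 6 fits that left out a library. Of 6 fibroblast markers, 5 were under 1 CPM in every library, with *COL1A2* and *LUM* at 0, and *COL1A1* was higher (log2 0.50), so that the summed level was 21.2 to 24.5 CPM in control and 29.9 to 34.4 CPM in IGF2BP3 KD cells. Of 5 leukocyte markers, 3 were under 1 CPM in every library, with *CD3E* at 0, and *CD68* was higher (log2 0.54), with summed levels of 33.4 to 38.8 CPM and 49.4 to 54.8 CPM. *CD68* made up most of these sums, and it shares 1765 of its 2163 exonic bases with another annotated gene on its strand. All 4 endothelial markers were under 1 CPM. The part of these markers in the changes of the fork genes was not tested. The summed level of the 37 genes was 2476 to 2511 CPM in control and 1975 to 2025 CPM in IGF2BP3 KD cells. Their median deviation from the control mean was -0.35, -0.36 and -0.30 (log2) in IGF2BP3 KD replicates 1, 2 and 3. IGF2BP3 KD replicate 3 held the highest value of its group in 20 genes and replicate 1, the shallowest library, the lowest in 18. In bulk RNA, fewer cells in S phase and less RNA of these genes per cell cannot be told apart.

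Promoter windows of 250 bases before to 50 after the annotated start, from RefSeq on GRCh38.p14, were matched by symbol for 30 of the 37 genes. *POLD3*, *ATAD5*, *DSCC1*, *RPA2*, *RPA3*, *GINS4* and *DNA2* had no entry. The windows were searched on both strands for TTTCGCGC or TTTGGCGC, words of the kind that E2F factors bind, for CCAAT, the word of NF-Y, and for TTTGAA or TTCGAA, words of the CHR element of genes expressed in G2 and M phase. A gene with several annotated starts had several windows and was counted when any of them held a word, so more starts gave more chances. Only these exact words were searched, so other forms of the sites were not seen. An E2F-type word was present in 6 of the 30 genes (20%), against 1.40% of 27305 genes with a window and 2.33% of the tested ones. These 6 stretches, which include the most strongly lowered gene, are printed 5′ to 3′ on the strand of the gene, with the word or its reverse complement in capitals.
POLA1: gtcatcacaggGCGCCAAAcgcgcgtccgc
TIPIN: ccccgcacggaTTTGGCGCcaaacgctgcg
GINS1: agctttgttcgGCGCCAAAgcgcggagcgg
POLE2: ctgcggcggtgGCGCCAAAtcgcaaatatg
POLA2: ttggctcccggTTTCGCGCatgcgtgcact
POLE: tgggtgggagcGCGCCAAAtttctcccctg

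The stretches lie on GRCh38.p14 at chrX:24693770-24693799 (*POLA1*, plus strand), chr15:66356733-66356762 (*TIPIN*, minus), chr20:25407667-25407696 (*GINS1*, plus), chr14:49688201-49688230 (*POLE2*, minus), chr11:65261898-65261927 (*POLA2*, plus) and chr12:132687342-132687371 (*POLE*, minus). With the start base counted as 0, the words begin at -137, -66, 5, -5, -53 and -18, in the same order. The *TIPIN* stretch holds the word on both strands, overlapping by 4 bases. It lies at a start well inside the annotated gene (chr15:66336191-66386746), and so does that of *GINS1* (chr20:25391008-25452700). Of the 6 genes with an E2F-type word, 6 were lower, with a median log2 fold change of -0.52, and of the 24 without one, 17 were lower, with a median of -0.285. Among the 6, the calls of *POLA2* and *POLE2* held in only 1 and 3 of the 6 fits that left out a library. Over all tested genes with a window, 25.1% of 279 with the word and 13.4% of 11678 without it were lower. CCAAT was present in 17 of the 30 genes (56.7%), against 42.4% of the tested genes with a window, and 12 of these 17 were lower, with a median log2 fold change of -0.264, while of the 13 genes without it 11 were lower, with a median of -0.383. The CHR-type words occurred in 1 gene, *POLE3*, against 15.6% of the tested genes with a window.

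**Figure D2:**
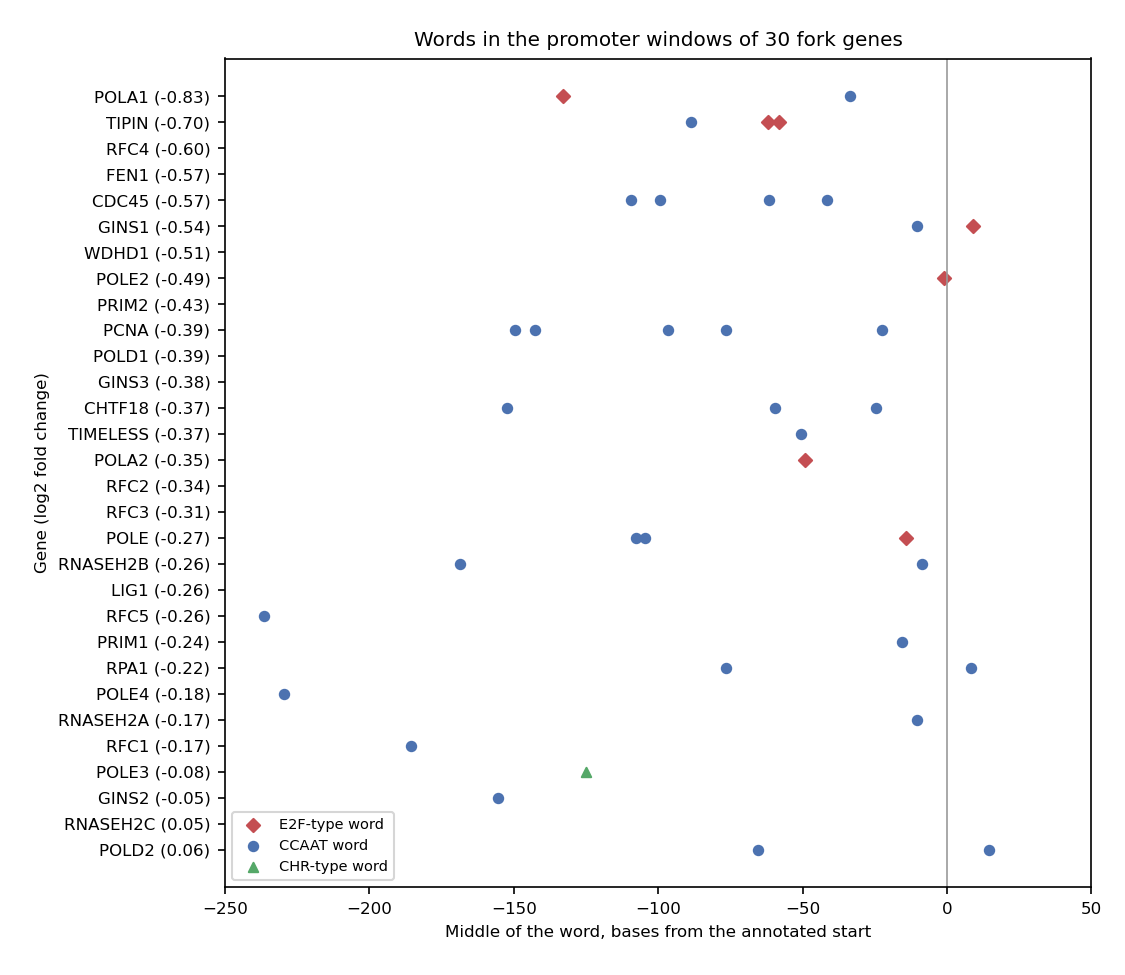
The x axis gives the middle of each word in bases from the annotated start, for the 30 genes with a RefSeq promoter window, which are ordered on the y axis by log2 fold change (in brackets). The 6 genes with an E2F-type word (diamonds) were all called lower, as were 17 of the 24 without one. CCAAT (circles) is spread over genes with and without a call.

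DNA polymerase alpha-primase starts every new strand. Of its 4 genes, 3 were lower and *PRIM1* was not called. *POLA1* (ENSG00000101868, chrX:24693873-24996986), the catalytic subunit of polymerase alpha, had 65.2, 65.7 and 66.2 CPM in control replicates 1, 2 and 3, and 39.5, 34.6 and 36.9 CPM in IGF2BP3 KD replicates 1, 2 and 3. The control values lay within 1.02 CPM of each other and far above all IGF2BP3 KD values. It fell to 56.3% of the control level, which was the largest change of the 37 (log2 -0.83, standard error 0.056, adjusted p = 2.3e-06). Of the 10551 coding genes whose mean reached 5 CPM, 65 had a lower log2 fold change. *PRIM2*, the large subunit of primase, had 27.4, 25.2 and 31.1 CPM in control and 19.99, 19.8 and 22.2 CPM in IGF2BP3 KD libraries, without overlap, and fell to 74.1% of control (log2 -0.43, standard error 0.085, adjusted p = 0.00387). *POLA2*, the B subunit that tethers the polymerase, had 22.3, 25.2 and 21.5 CPM in control and 19.6, 14.8 and 19.9 CPM in IGF2BP3 KD libraries. IGF2BP3 KD replicate 2 was the low value, and the groups did not overlap (log2 -0.35, standard error 0.11, adjusted p = 0.0484). This call was lost without any of control replicates 1, 2 and 3 and IGF2BP3 KD replicates 1 and 2, at adjusted p from 0.0592 to 0.184, and its log2 fold change without IGF2BP3 KD replicate 2 was -0.22. *POLA2* also shares 2012 exonic bases with another annotated gene on its strand. *PRIM1*, the catalytic subunit of primase, had 24.6, 21.5 and 19.9 CPM and 17.2, 18.6 and 19.97 CPM, and its groups overlapped (log2 -0.24, adjusted p = 0.0901).

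Polymerase delta copies the lagging strand. Its catalytic subunit *POLD1* had 85.3, 87.7 and 91.7 CPM in control and 66.6, 65.6 and 70.4 CPM in IGF2BP3 KD libraries, and the accessory subunit *POLD3*, which binds PCNA, had 157, 156 and 167 CPM and 116, 117 and 119.6 CPM. Both were lower without overlap, to 76.5% of control for *POLD1* (log2 -0.39, standard error 0.046, adjusted p = 1.4e-04) and 73.6% for *POLD3* (log2 -0.44, standard error 0.036, adjusted p = 9.6e-06). *POLD2*, the subunit that bridges both of these proteins, had 97.9, 92.6 and 96.7 CPM and 98.9, 98.7 and 102 CPM. All 3 IGF2BP3 KD values of *POLD2* lay just above the control values, and the log2 fold change of 0.059 (standard error 0.038) was not called (adjusted p = 0.346). *POLD1* and *POLD3* are on different chromosomes, at chr19:50384204-50418018 and chr11:74493851-74669117, and the ratio of their CPM is given with the other subunit ratios.

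Polymerase epsilon copies the leading strand. The catalytic subunit *POLE* (chr12:132623753-132687376) had 89.4, 96.6 and 99.8 CPM in control and 77.02, 80.8 and 79.4 CPM in IGF2BP3 KD libraries, and was lower at 82.99% of control (log2 -0.27, standard error 0.048, adjusted p = 0.002001). *POLE2*, the B subunit that joins the polymerase to the helicase, had the lowest CPM of the 37 genes, with 8.51, 9.79 and 9.22 CPM in control and 6.48, 7.35 and 5.73 CPM in IGF2BP3 KD libraries (log2 -0.49, standard error 0.12, adjusted p = 0.0162). The groups of *POLE2* did not overlap, and its call was lost without control replicate 2 (adjusted p = 0.0721), without control replicate 3 (0.0518) and without IGF2BP3 KD replicate 3 (0.0595). The histone-fold subunits *POLE3* and *POLE4*, which also occur in chromatin complexes, were not called. *POLE4* had 29.1, 31.5 and 31.4 CPM and 25.9, 27.9 and 27.4 CPM, without overlap (log2 -0.18, adjusted p = 0.06205), and was called lower by DESeq2 (adjusted p = 0.0454), without control replicate 1 (0.0451) and with at least 10 counts required in every library (0.0489). *POLE3* had 106, 103 and 103 CPM and 97.01, 101 and 96.8 CPM (log2 -0.082, standard error 0.037, adjusted p = 0.157).

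*PCNA* (ENSG00000132646, chr20:5114953-5126626), the clamp, was the most abundant of the genes. It had 264, 249 and 245 CPM in control and 192, 191 and 193 CPM in IGF2BP3 KD libraries. The IGF2BP3 KD values lay within 2.30 CPM of each other and at least 51.7 CPM below the lowest control value. This is 76.1% of the control level (log2 -0.39, standard error 0.033, adjusted p = 1.1e-05). *PCNA* shares no exonic base with another gene in GENCODE v44.

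All 5 subunits of the clamp loader RFC were lower, and so were the 3 genes specific to alternative loaders. *RFC4* (chr3:186789880-186807058), a small subunit, fell most, with 50.02, 45.8 and 47.7 CPM in control and 31.9, 32.3 and 30.3 CPM in IGF2BP3 KD libraries (log2 -0.60, standard error 0.057, adjusted p = 2.6e-05). *RFC2* had 65.3, 66.4 and 66.8 CPM and 52.7, 50.5 and 53.7 CPM (log2 -0.34, adjusted p = 3.3e-04). *RFC3* had 119, 103 and 116 CPM and 87.9, 89.1 and 96.7 CPM (log2 -0.31, adjusted p = 0.00298). None of these 3 overlapped between the groups. The large subunit *RFC1*, with a mean of 100.05 ± 4.61 CPM in control and 89.1 ± 3.53 CPM in IGF2BP3 KD libraries (SD, n = 3), had the smallest fall of all genes called (log2 -0.17, adjusted p = 0.0253). *RFC5* went from 31.3 ± 1.32 CPM to 26.2 ± 2.58 CPM (log2 -0.26, adjusted p = 0.0344). The call of *RFC1* was lost without control replicates 2 or 3 and without IGF2BP3 KD replicates 2 or 3, at adjusted p from 0.0860 to 0.103. That of *RFC5* was lost in the same 4 fits and without control replicate 1, at adjusted p from 0.0631 to 0.127.

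Alternative loaders share the small RFC subunits and replace RFC1. *DSCC1* and *CHTF18* belong to the loader that works with sister chromatid cohesion, and *ATAD5* to the one that takes PCNA off DNA after replication. *DSCC1* had 114, 111 and 106 CPM in control and 90.8, 83.7 and 88.5 CPM in IGF2BP3 KD libraries (log2 -0.33, adjusted p = 3.1e-04). *CHTF18* had 36.2, 43.05 and 40.5 CPM and 30.02, 31.01 and 31.4 CPM (log2 -0.37, adjusted p = 0.00257). *ATAD5* had 45.9, 43.7 and 45.5 CPM and 35.4, 37.9 and 37.3 CPM (log2 -0.29, adjusted p = 0.00267). The groups overlapped in none of the 3, and their log2 fold changes lay between -0.37 and -0.29, a narrower range than within RFC, where they lay between -0.60 and -0.17.

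RPA coats single-stranded DNA as a complex of 3 subunits, and 2 of its 3 genes were lower. *RPA1*, the large DNA-binding subunit, had 186, 175 and 189 CPM in control and 155, 156 and 159.6 CPM in IGF2BP3 KD libraries (log2 -0.22, standard error 0.036, adjusted p = 0.00106). *RPA2*, the subunit phosphorylated after DNA damage, had 60.7, 57.1 and 62.7 CPM and 43.1, 49.8 and 48.99 CPM (log2 -0.35, standard error 0.064, adjusted p = 0.00254). Both were lower without overlap. *RPA3*, the smallest subunit, had 15.5, 14.8 and 13.7 CPM in control and 16.5, 18.5 and 16.7 CPM in IGF2BP3 KD libraries, so that all IGF2BP3 KD values lay above all control values. At log2 0.24 (standard error 0.082) it was not called (adjusted p = 0.0651 with edgeR and 0.0782 with DESeq2). *RPA3* shares 188 exonic bases with genes on the opposite strand, among them *UMAD1*.

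CDC45 and the 4 GINS subunits turn the MCM ring into the active helicase. *CDC45* (ENSG00000093009, chr22:19479457-19520612) had 82.2, 87.3 and 88.2 CPM in control and 58.5, 56.1 and 59.5 CPM in IGF2BP3 KD libraries, a fall to 67.6% of control (log2 -0.57, standard error 0.046, adjusted p = 9.4e-06). *GINS1* had 37.3, 40.9 and 38.7 CPM and 26.2, 26.5 and 27.7 CPM (log2 -0.54, adjusted p = 7.6e-05). *GINS4* had 31.5, 31.8 and 31.4 CPM and 22.9, 23.98 and 25.7 CPM (log2 -0.38, adjusted p = 0.001102). These 3 and *GINS3*, which went from 13.1 ± 0.508 CPM to 10.1 ± 0.772 CPM (log2 -0.38, adjusted p = 0.01195), were lower without overlap. *GINS2* had 24.7, 23.02 and 25.8 CPM and 21.99, 24.1 and 25.04 CPM, its groups overlapped, and its log2 fold change of -0.048 (standard error 0.072) was not called (adjusted p = 0.723).

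The 3 genes that link or protect the moving fork were all lower. *TIPIN* and *TIMELESS* encode partners in the complex that keeps helicase and polymerase together, and *WDHD1* encodes the adaptor that connects polymerase alpha to the helicase. *TIPIN* (chr15:66336191-66386746) had 19.01, 18.9 and 18.9 CPM in control and 12.7, 11.2 and 11.1 CPM in IGF2BP3 KD libraries. Its 3 control values lay within 0.13 CPM of each other, and after *POLA1* it had the largest fall, to 61.6% of control (log2 -0.70, standard error 0.08, adjusted p = 9.9e-05). *WDHD1* had 47.1, 45.7 and 44.7 CPM and 32.04, 34.2 and 30.4 CPM (log2 -0.51, adjusted p = 1.1e-04). *TIMELESS* had 106, 114 and 113 CPM and 85.7, 82.8 and 88.1 CPM (log2 -0.37, adjusted p = 1.1e-04). The groups did not overlap in any of the 3 genes. *TIPIN* shares 579 exonic bases with the pseudogene *RPL9P25* on its strand.

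Okazaki fragments are finished by the flap endonuclease *FEN1*, the helicase-nuclease *DNA2* and the ligase *LIG1*. *FEN1* (ENSG00000168496, chr11:61792911-61797238) had 71.1, 72.6 and 70.98 CPM in control and 45.9, 48.1 and 50.3 CPM in IGF2BP3 KD libraries, and fell to 67.2% of control (log2 -0.57, standard error 0.049, adjusted p = 1.3e-05). *DNA2* had 35.96, 32.4 and 34.2 CPM and 22.5, 23.4 and 25.9 CPM (log2 -0.51, standard error 0.07, adjusted p = 3.7e-04). *LIG1* had 119.7, 135 and 129 CPM and 108, 106 and 106 CPM (log2 -0.26, standard error 0.045, adjusted p = 0.00159). All 3 were lower without overlap, with the value of *LIG1* nearest to 0.

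Ribonuclease H2 removes RNA from DNA, both from primers and where single ribonucleotides were built in. Of its 3 genes only *RNASEH2B*, an accessory subunit, was lower, with 42.1, 38.8 and 41.7 CPM in control and 32.9, 34.1 and 35.1 CPM in IGF2BP3 KD libraries (log2 -0.26, standard error 0.057, adjusted p = 0.00688). The catalytic subunit *RNASEH2A* had 31.1, 31.9 and 30.9 CPM and 25.9, 27.6 and 29.97 CPM, which did not overlap but were not called (log2 -0.17, standard error 0.065, adjusted p = 0.0999). *RNASEH2C* had 28.8, 31.6 and 27.5 CPM and 27.8, 32.1 and 31.05 CPM, with overlapping groups (log2 0.051, standard error 0.074, adjusted p = 0.71005). *RNASEH2A* shares 1095 exonic bases with *THSD8* on its strand and *RNASEH2C* 1439 with *KAT5* on the opposite strand. The library kit keeps the strand, but the strand setting of the counting is not given in the sources used here, so these counts are uncertain. This also holds for lowered genes that share bases with the opposite strand, among them *GINS4* (1276 bases), *GINS3* (558), *POLA2* (543) and *LIG1* (425).

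**Figure D3:**
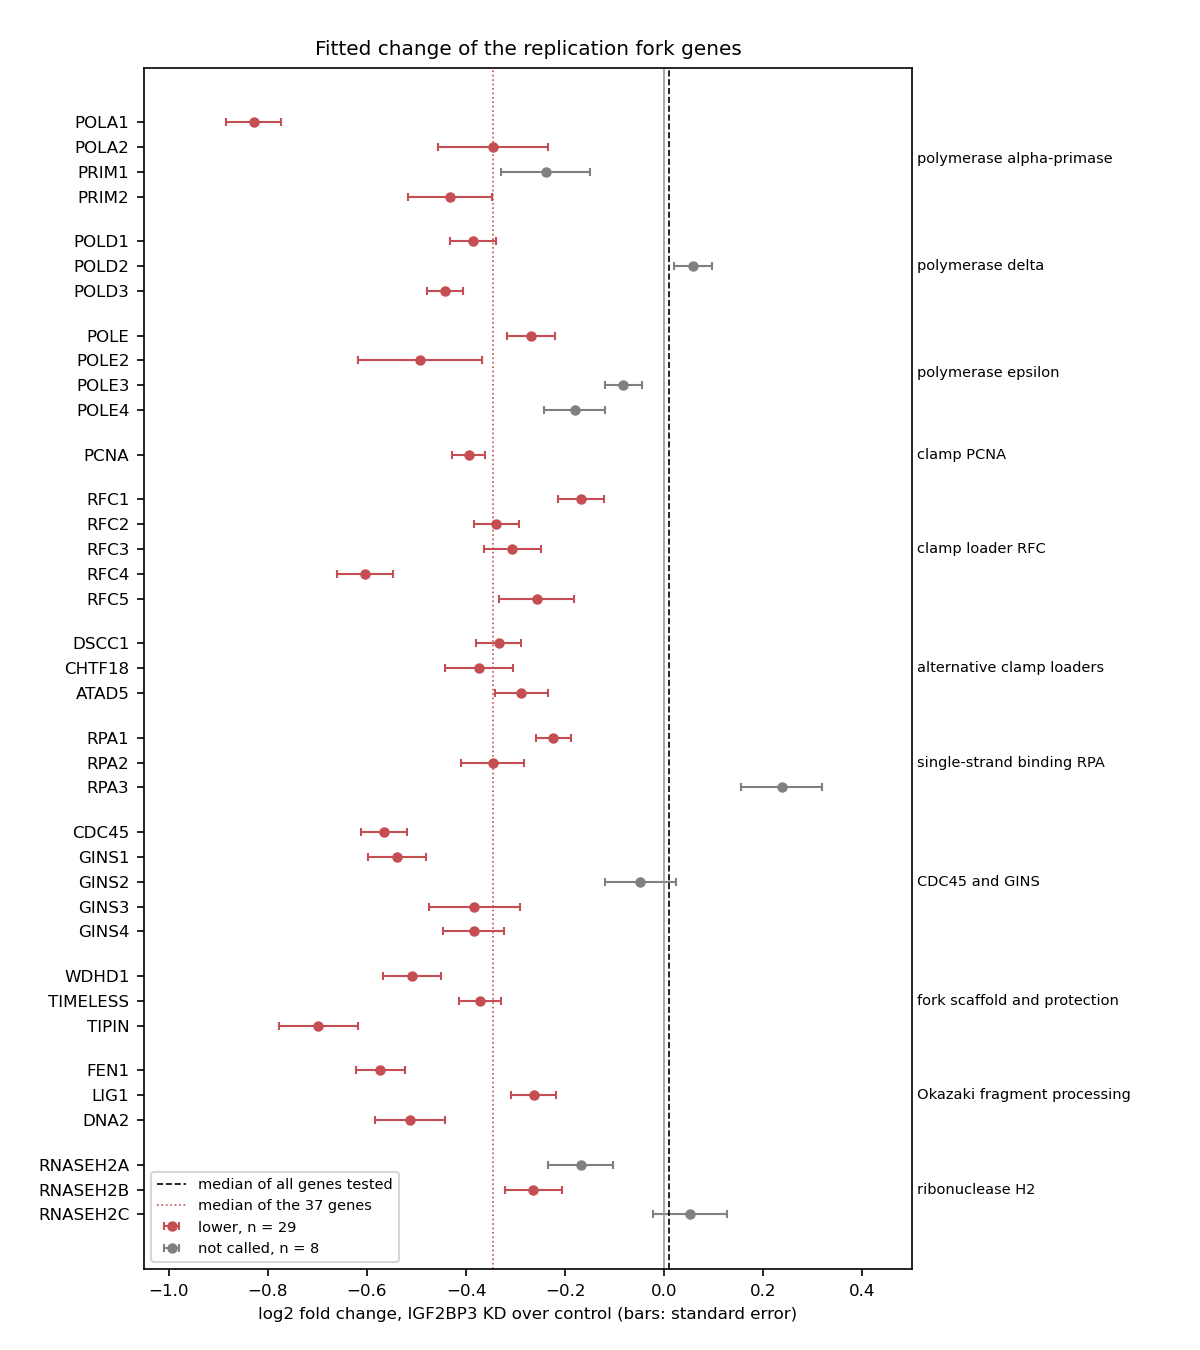
Points give the log2 fold change of each gene on the x axis, IGF2BP3 KD over control, with its standard error, and genes are grouped by role on the y axis. The 29 genes called lower (red) lie between -0.83 and -0.17, and the 8 not called (grey) between -0.24 and 0.24, while the dashed line marks the median of all genes tested at 0.0098.

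In GENCODE v44, 22 of the 37 genes share exonic bases with another gene, and 16 of these were lower. The 15 that share none are *POLA1*, *PRIM2*, *POLD2*, *POLE*, *POLE2*, *POLE4*, *PCNA*, *RFC1*, *RFC2*, *RFC3*, *DSCC1*, *RPA2*, *WDHD1*, *TIMELESS* and *DNA2*. Of these, 13 were lower, and their median log2 fold change was -0.35. Of all genes tested 10.6% were lower, and of expressed coding genes 18.4%, neither split by shared bases.

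The 3′ UTRs of the Ensembl canonical transcripts were searched for GATTACT, a word whose genes were found lower in an earlier analysis of these libraries, and for ACACATC, whose genes were found higher. GATTACT was present in 3 of the 37 genes (8.11%), against 7.69% of 13934 tested genes with a 3′ UTR, and ACACATC in 0, against 9.53%. The sites are printed 5′ to 3′ on the transcript strand with the word in capitals, since they mark which fork genes belong to that set.
FEN1: ttgtgactGATTACTggctgtgt
DNA2: catgaattGATTACTtcctgtta
WDHD1: tctttgcaGATTACTctgcctcc

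On hg38 these sites lie at chr11:61797036-61797058 (*FEN1*, plus strand), chr10:68414534-68414556 (*DNA2*, minus) and chr14:54941284-54941306 (*WDHD1*, minus). The word begins at base 540 of 734 of the *FEN1* 3′ UTR, at base 491 of 975 in *DNA2* and at base 192 of 2541 in *WDHD1*. The 3 genes had log2 fold changes between -0.57 and -0.51. Of all tested genes with the word 35.1% were lower, against 12.6% of those without it, a contrast that was fixed when the word was chosen on these same libraries and that supports nothing further. Of the 34 fork genes without the word, 26 were lower, with a median log2 fold change of -0.34. *POLA1*, *TIPIN*, *RFC4*, *CDC45* and *GINS1*, which complete the 8 largest falls, lack it. TGGAC, the DNA form of the motif reported for IGF2BP3 binding, was present in the 3′ UTR of 19 of the 37 genes (51.4%), against 61.4% of the tested genes, while the median 3′ UTR was 917 bases long in the former and 1257 in the latter.

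Levels of different genes were compared as control CPM per kilobase of annotated exons (mean ± SD, n = 3). *PCNA* stood far above all others at 180.04 ± 7.01. Within polymerase alpha-primase the order was *PRIM1* (6.64 ± 0.721), *PRIM2* (4.94 ± 0.527), *POLA1* (4.23 ± 0.0329) and *POLA2* (1.91 ± 0.163), where *PRIM2* and *POLA1* differed by little more than their summed SDs. In IGF2BP3 KD cells *POLA1*, at 2.38, kept its place between *PRIM2* at 3.66 and *POLA2* at 1.51. Within polymerase epsilon it was *POLE3* (39.9 ± 0.621), *POLE4* (15.3 ± 0.687), *POLE* (7.71 ± 0.431) and *POLE2* (3.12 ± 0.218). Within RFC it was *RFC3* (39.5 ± 3.004), *RFC2* (29.9 ± 0.353), *RFC4* (15.97 ± 0.6996), *RFC1* (14.9 ± 0.686) and *RFC5* (9.62 ± 0.407), and *RFC4* and *RFC1* differed by less than their summed SDs. In IGF2BP3 KD cells *RFC4* was below *RFC1*, at 10.5 against 13.3. With the length of the canonical transcript in place of all exons, the control order stayed the same in these 3 complexes.

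In polymerase delta, RPA, CDC45 and GINS, the scaffold genes, the Okazaki genes and ribonuclease H2 the order depended on that length. In polymerase delta, *POLD2* was lowest per kilobase of all exons (11.96 ± 0.344, against 17.9 ± 0.658 for *POLD1* and 29.1 ± 1.05 for *POLD3*) and highest per kilobase of the canonical transcript (59.5 ± 1.71, against 25.7 ± 0.945 and 42.2 ± 1.53). *RPA3* was far below *RPA1* and *RPA2* with either length, at 4.53 ± 0.282 against 33.4 ± 1.34 and 30.4 ± 1.43, or 7.25 ± 0.451 against 37.8 ± 1.52 and 38.001 ± 1.79. *CDC45*, at 28.8 ± 1.08 or 45.7 ± 1.72, exceeded each GINS gene with either length, the highest of which was *GINS2* at 7.62 ± 0.441 over all exons and *GINS1* at 11.8 ± 0.556 over the canonical transcript.

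Ratios within a library do not depend on how libraries are scaled, so 10 pairs of subunits were compared as log2 ratios of CPM (mean ± SD, n = 3). *RPA3* over *RPA1* was -3.65 ± 0.12 in control and -3.19 ± 0.098 in IGF2BP3 KD cells, a difference of 0.46 (standard error 0.090) without overlap. *POLA2* over *POLA1* went from -1.52 ± 0.12 to -1.04 ± 0.17, a difference of 0.48 (standard error 0.12), also without overlap. *TIPIN* over *TIMELESS* went from -2.55 ± 0.063 to -2.88 ± 0.12, a difference of -0.33 (standard error 0.076). In the first 2 of these pairs the first-named subunit had the higher log2 fold change, and in the last one the lower. *POLE3* over *POLE* differed by 0.19 (standard error 0.061) and *POLE2* over *POLE* by -0.23 (standard error 0.11), both without overlap. Without IGF2BP3 KD replicate 3 the difference of *POLE2* over *POLE* was -0.14. In each of these 5 pairs the two-sided exact permutation test gave p = 0.1, the smallest that 3 against 3 libraries allow, and 0.2 after Benjamini-Hochberg adjustment over the 10 pairs. The groups overlapped in the other 5 pairs, *PRIM1*/*PRIM2* (0.19), *POLD3*/*POLD1* (-0.056), *RFC3*/*RFC1* (-0.14), *GINS1*/*GINS3* (-0.15) and *RNASEH2A*/*RNASEH2B* (0.093), with exact p of 0.2 or 0.3. Single libraries moved 4 of these by over 1.5 times. *PRIM1*/*PRIM2* was 0.042 without control replicate 3, and *GINS1*/*GINS3* was -0.24 without IGF2BP3 KD replicate 3. *RFC3*/*RFC1* was -0.059 without control replicate 1, -0.22 without control replicate 2 and -0.080 without IGF2BP3 KD replicate 1, and *RNASEH2A*/*RNASEH2B* was 0.14 without control replicate 2 and 0.061 without IGF2BP3 KD replicate 3. The ratio of *POLD3* to *POLD1* varied little between libraries, with SDs of 0.024 in control and 0.037 in IGF2BP3 KD cells.

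**Figure D4:**
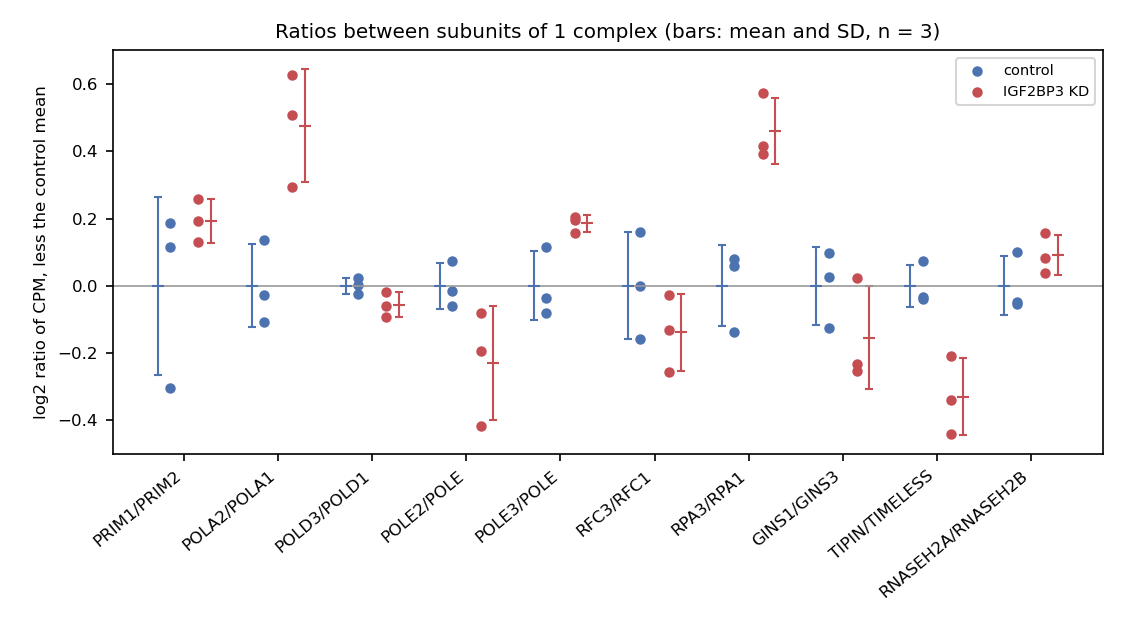
For each of 10 pairs of subunits (x axis) the y axis gives the log2 ratio of their CPM in each library, less the mean of the control libraries, with the mean and SD of the 3 libraries beside the points. *RPA3* over *RPA1* and *POLA2* over *POLA1* lie above the control points in all 3 IGF2BP3 KD libraries, and *TIPIN* over *TIMELESS* lies below them.

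Other genes of DNA replication were compared from lists. In a list of 28 further fork factors, 15 were lower and 1 higher, and the median was -0.25 (log2). The share lower was 53.6%, against 18.4% of expressed coding genes and 10.6% of all genes tested. Of the 15, *PIF1*, *TICRR* and *CHAF1B* were called in 4, 3 and 1 of the 6 fits that left out a library. *MMS22L*, which restarts stalled forks with TONSL, had 41.5, 43.2 and 39.2 CPM in control and 24.1, 25.997 and 21.5 CPM in IGF2BP3 KD libraries (log2 -0.79, adjusted p = 2.9e-05). *CLSPN*, the checkpoint mediator that travels with TIMELESS and TIPIN, had 50.4, 52.1 and 53.1 CPM and 31.3, 28.5 and 32.4 CPM (log2 -0.75, adjusted p = 8.0e-06). *MCM10*, which activates the helicase, had 54.04, 48.9 and 51.5 CPM and 33.6, 35.5 and 32.4 CPM (log2 -0.60, adjusted p = 3.6e-05). The groups did not overlap in any of these genes. The histone chaperone *ASF1A* was the gene called higher, with 22.8, 18.5 and 19.5 CPM and 25.9, 26.1 and 25.7 CPM (log2 0.35, adjusted p = 0.00899). The PCNA partner *PCLAF* had 95.9 ± 5.44 CPM and 102 ± 0.8002 CPM (log2 0.089, adjusted p = 0.209), and *POLD4*, the fourth subunit of polymerase delta, had 68.03 ± 5.26 CPM and 74.5 ± 2.14 CPM (log2 0.13, adjusted p = 0.144), neither of them called.

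The next lists hold polymerases that work outside the standard fork. Of 15 translesion and repair genes 3 were lower and 0 higher, and the median was -0.056 (log2), so that the share lower was 20%, near the 18.4% of expressed coding genes. They were *PRIMPOL*, a primase-polymerase (log2 -0.64, adjusted p = 0.0271), *POLQ*, the end-joining polymerase (log2 -0.34, adjusted p = 0.00185), and *RAD18*, the ligase that marks PCNA for translesion synthesis (log2 -0.21, adjusted p = 0.0239). *PRIMPOL* was not called without control replicates 1 or 3 or IGF2BP3 KD replicates 1 or 3, at adjusted p from 0.0712 to 0.0974. *RAD18* was not called without control replicate 3 or IGF2BP3 KD replicates 2 or 3, at adjusted p from 0.0814 to 0.0918. Of the CST complex, which guides polymerase alpha to telomeres, 0 of 3 genes were called. Of 8 genes of mitochondrial DNA replication, 2 were lower (25%, against the same 18.4%) and 0 higher, with a median of -0.12. They were *TWNK*, the mitochondrial helicase (log2 -0.31, adjusted p = 0.006197), and *POLG*, the mitochondrial DNA polymerase (log2 -0.27, adjusted p = 0.009799). *POLG* shares 783 exonic bases with *POLGARF* on its strand.

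The last list holds 18 genes that peak in G2 and M phase. Of these 6 were lower (33.3%, against 18.4% of expressed coding genes and 10.6% of all genes tested) and 0 higher, and the median log2 fold change was -0.096. Of the 6, *MKI67*, *BUB1* and *KIF20A* were called in 5, 3 and 1 of the 6 fits that left out a library. The summed level of all 18 genes was 3397 to 3522 CPM in control and 3188 to 3224 CPM in IGF2BP3 KD cells. *BUB1B*, a spindle checkpoint kinase, went from 154 ± 4.38 CPM to 109 ± 2.06 CPM (log2 -0.50, adjusted p = 3.2e-06), *CCNB1*, the mitotic cyclin B1, from 50.8 ± 1.02 CPM to 41.2 ± 2.51 CPM (log2 -0.30, adjusted p = 0.002903) and *TPX2*, a spindle factor, from 324 ± 11.8 CPM to 271 ± 5.36 CPM (log2 -0.26, adjusted p = 2.1e-04). *BUB1B* shares exonic bases with *PAK6* and *BUB1B-PAK6* on its strand. *CDK1* (-0.096, adjusted p = 0.271), *CCNA2* (0.017, adjusted p = 0.768) and *PLK1* (0.066, adjusted p = 0.403) were not called, and were named after their values were seen. The differences between the fork genes and any of these lists were not tested, nor was the part of the cell cycle distribution in the fall of the fork genes.

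**Figure D5:**
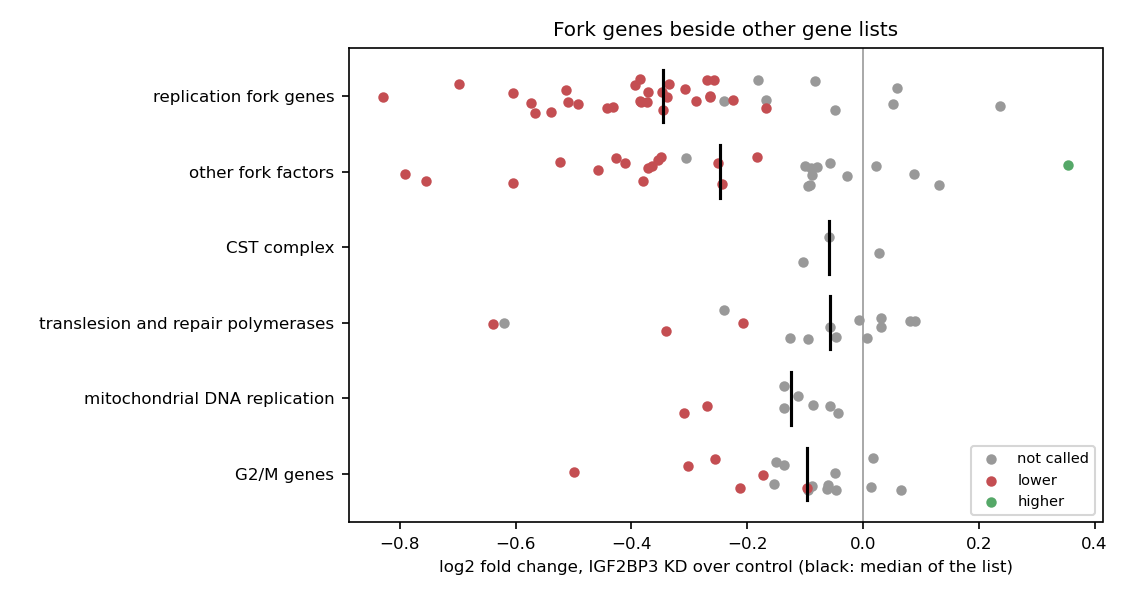
Each point is a tested gene, with its log2 fold change on the x axis and its list on the y axis, and black bars mark the medians. The medians are -0.35 for the 37 fork genes, -0.25 for the further fork factors, -0.059 for the CST complex, -0.056 for translesion and repair polymerases, -0.12 for mitochondrial DNA replication and -0.096 for the G2/M genes.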

How the data were processed

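RNA-seq was done on poly(A) RNA of OE-19 cells, with 3 control and 3 IGF2BP3 KD libraries read as pairs of 150 bases. The deposited values are raw counts per gene, which the authors made with fastp, HISAT2 on hg38 and featureCounts. Tool versions, annotation release and strand setting are not given in the sources used here. Columns were assigned to libraries by the names in the sample descriptions. The control columns are named Puro, and the titles of those samples read shControl. Only the first entry was kept of 44 identifiers that occur repeatedly, which removed 132 entries. Within a group, libraries differed beyond sampling noise (chi-square per degree of freedom from 9.86 to 17.6, for genes averaging 50 counts or more).

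The quasi-likelihood test of edgeR 4.0.16 was run under R 4.3.3 with TMM factors, no block, and a filterByExpr limit of 10 (total 15), over 19778 genes, with Benjamini-Hochberg adjustment over all of them. CPM are TMM-scaled, and standard errors were derived from the log2 fold change and the F statistic. The fit was also run on simulated counts to check the code, and no result here rests on that run. Alternatives used DESeq2 1.42.0, limma 3.58.1, other filters, scaling and thresholds, a replicate block, and libraries left out in turn. Positions, exon lengths and 3′ UTRs come from GENCODE v44 on hg38 and promoters from RefSeq. No protein sequences were analysed here. The 37 genes, the other lists and the GATTACT and ACACATC words were chosen with earlier results of these data known. The named genes are all 37, with values in every library for *PCNA* and the 3 largest changes of each role, and, in each other list, the 3 called genes with the largest changes and every gene called higher. Further genes were named after their values were seen. Figures used Python 3.11.15 and matplotlib 3.10.9.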

Additional observations from a re-analysis of the deposited data

How the results depend on the processing

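Leaving out single libraries gave 25 to 28 fork genes called lower (29 with all libraries), 0 called higher, and a median log2 fold change between -0.36 and -0.31. In all 6 of these fits, with DESeq2, with limma voom and with the replicate block, 25 of the 29 genes were called, the exceptions being *POLA2*, *POLE2*, *RFC1* and *RFC5*. No fork gene changed direction under any alternative run. The count of fork genes called lower was 29 with RLE scaling (2141 of all genes lower) and with limma voom (2065). It was 30 with DESeq2 (2416) and with at least 10 counts in every library (2319), and 27 without a filter on low counts (1768). At an adjusted p under 0.01 it was 24. At that threshold, 1314 genes of the whole table were lower and 1098 higher, against 2088 and 1953. With the limit of 0.5 on the log2 fold change, 8 fork genes and 416 of all genes were lower and 465 of all genes were higher. Without the fork genes that share exonic bases with another gene, 13 of 15 were lower, against 10.6% of all genes tested.

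The replicate numbers are shared between the groups. Deviations from the group means correlated between same-numbered libraries at only -0.0017, -0.032 and 0.0092 over genes, so the values showed no pairing by number. These correlations cannot show whether same-numbered libraries were prepared together. With the replicate block, 27 fork genes and 2026 of all genes were lower, the calls of *POLA2* (adjusted p = 0.0749) and *RFC5* (0.0528) were lost, and 0 of 10 epithelial markers were lower in place of 2. No library correlated best with the one of its own number. Within 100 bases of the start, the CHR-type words occurred in 0 of the 30 promoter windows. With canonical transcript lengths, 3 members of polymerase delta, 3 of CDC45 and GINS, 3 of ribonuclease H2, 2 of RPA, 2 of the fork scaffold genes and 2 of the Okazaki genes took another rank. Alternatives with canonical lengths, without GATTACT genes (26 of 34 lower) and with the 5 CPM background were chosen after the data were seen. For the subunit ratios the exact permutation test cannot go below p = 0.1 with 3 libraries a group. Protein sequences were not analysed here.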
